A study of Sus scrofa with 12 samples.

Results

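The Notch genes of cultured porcine aortic valve interstitial cells (paVICs) were followed through exposure to lysophosphatidylcholine (LPC), dantrolene, and the combination. They were chosen by gene symbol, and comprise 3 receptors (NOTCH1, NOTCH2, and NOTCH3), 3 ligands (JAG1, JAG2, and DLL1), the DNA-binding factor RBPJ, and 3 target genes (HES1, HEY1, and HEYL). All 10 symbols were found among the 31908 genes of the count table, each on 1 row. All 10 passed the filter on low counts, which left 13216 genes to be tested.

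LPC is a phospholipid carried by oxidized lipoproteins, and dantrolene is a blocker of ryanodine receptors, the channels that release calcium from intracellular stores. The cells were wild-type primary cells from pig aortic valves whose endothelium had been wiped off, pooled over hearts within an isolation, passaged, and grown on plastic, which limits them as a model of valve tissue. Each group held 3 libraries of mRNA, 1 from each of 3 isolations, after 24 h in low-serum medium. The groups were vehicle (0.6% DMSO and 0.1% ethanol), 10 μM LPC (with 0.6% DMSO), 60 μM dantrolene (with 0.1% ethanol), and 10 μM LPC + 60 μM dantrolene.

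Notch receptors sit on the surface of a cell and are bound by Jagged and Delta-like ligands on its neighbors. Binding lets the protease ADAM10 and then the γ-secretase complex cut the receptor, and the freed intracellular domain enters the nucleus, where it binds RBPJ and turns on genes of the HES and HEY families. Without that domain RBPJ is held with corepressors. In the aortic valve the pathway is best known through NOTCH1, whose loss of function in people is linked to bicuspid and calcified valves.

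In the Sscrofa11.1 assembly, as annotated by RefSeq, NOTCH2 spans chr4:100951522-101152348 and NOTCH3 chr2:62364507-62402348. JAG1 lies at chr17:19591248-19629659 and DLL1 at chr1:198815-211346. RBPJ spans chr8:19933035-20166746. Of the target genes, HES1 is at chr13:131135970-131137865, HEY1 at chr4:56859640-56863807, and HEYL at chr6:95442655-95459597. The annotation places NOTCH1 and JAG2 on sequence with no chromosome assigned, so no position is given for them.

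Between 16489684 and 24105935 counts fell on genes in a library, and 3 counts, taken here as the floor of detection, corresponded to 0.114 to 0.186 CPM, counts scaled to a common library size. Levels below are CPM scaled by trimmed mean of M-values (TMM) factors, in the order of isolations 1, 2, and 3, and are not divided by gene length, so levels are compared within a gene only. The deposited counts had already been adjusted for batch by the authors with the ComBat function, the batch not being named in the sources used here. That step is not allowed for in the residual spread of the fit, which can make adjusted p-values too small. The p-values rest on the spread between libraries of a group that was left after that step. If the isolation was the batch, differences between isolations had been reduced in it. The LPC + dantrolene library of isolation 2 stood apart, at −46.0 on the first principal component against −16.0 to 20.8 for the other libraries. Its mean correlation with the rest was 0.922, against 0.941 to 0.962 for the others, and calls that involve it are given with and without it.

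All 10 interstitial and fibroblast markers were above the floor in every library, with a summed level of 44542 to 81806 CPM. Among them LUM, which encodes a matrix proteoglycan, was higher in each treatment (log2 fold change 1.35 for LPC, 1.59 for dantrolene, and 1.35 for the combination, adjusted p = 0.00351, 0.000608, and 0.0042, and 1.69 for the last without the library that stood apart). POSTN, another matrix gene, was higher with LPC (1.60, adjusted p = 0.00188). Its LPC libraries (31.4 to 98.9 CPM) overlapped vehicle (8.88 to 35.1 CPM). No other marker of this list passed in a treatment against vehicle. Calls were thus 2, 1, and 1 of 10 higher, where 8.54%, 7.54%, and 6.23% of all genes were. The median log2 fold change of the list was −0.17 with LPC, −0.28 with dantrolene, and −0.12 with the combination. The 17 endothelial markers summed to 197 to 228 CPM with vehicle. The sums were 152 to 186 CPM with LPC, 164 to 177 CPM with dantrolene, and 158 to 171 CPM with the combination. They rest on TMM factors, which were low with vehicle (0.879 to 0.918). On total counts alone each treatment overlapped vehicle. Vehicle of isolation 3 (197 CPM, factor 0.879) then lay below LPC (186 CPM, factor 1.04) and dantrolene (177 CPM, factor 1.09) of isolation 2. It also lay below the combination of isolation 1 (166 CPM, factor 1.15). In the 15 tested, log2 fold changes ran −1.91 to 1.84 with LPC, −1.20 to 0.25 with dantrolene, and −1.73 to 1.51 with both. Their medians were −0.31, −0.31, and −0.37, against −0.18, −0.11, and −0.08 over all tested genes. Between 13 and 16 of the 17 were above the floor. The defining markers PECAM1 (432 to 1087 counts), CDH5 (245 to 646), and ERG (775 to 1829) were present in every library, whereas KDR had at most 5 counts. CDH5 was lower with dantrolene (log2 fold change −1.20, adjusted p = 0.0111), 1 of the 15 tested, where 1.26% of all genes were lower. With LPC + dantrolene CDH5 stood at 14.9 to 17.0 CPM, against 28.7 to 37.7 CPM with vehicle, but no marker of this list passed there. The 10 smooth muscle and mural markers ranged from 9475 to 34810 CPM in sum, and of these DES was lower with dantrolene (log2 fold change −1.30, adjusted p = 0.0117) and with LPC + dantrolene (−1.63, adjusted p = 0.00114, and −1.52 without the library that stood apart). DES in both groups (142 to 350 CPM and 95.7 to 291 CPM) overlapped vehicle (289 to 733 CPM). Marker calls were not run through the alternative settings used below, apart from leaving out that library. The 4 cardiomyocyte markers summed to at most 0.717 CPM. Of the 7 leukocyte markers 2 to 4 were above the floor, with a sum of 12.6 to 28.8 CPM, most of it CD14 (201 to 451 counts). CD68 had 14 to 59 counts, and PTPRC, CD163, and CD3E were at 0 in all 12 libraries. Whether these shares had a part in the Notch values was not tested, and in bulk cultures fewer cells of a type and less RNA per cell cannot be told apart.

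Of the 10 Notch genes, RBPJ alone passed the test in a treatment against vehicle, and it was higher in each of the 3 treatments. No receptor, ligand, or target gene passed in any of the comparisons (edgeR quasi-likelihood test, Benjamini-Hochberg adjusted p under 0.05 over all 13216 genes). With LPC 1 of 10 members was higher, where 8.54% of all genes were, and 0 were lower, where 0.144% were. With dantrolene 1 of 10 was higher against 7.54% of all genes, and 0 were lower against 1.26%. With LPC + dantrolene 1 of 10 was higher against 6.23%, and 0 were lower against 0.9%. One call in 10 is near these shares, so the count says nothing particular to the pathway. These 3 comparisons share the vehicle libraries and are not independent of each other. RBPJ was among 723 genes that were higher in all 3 treatments.

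RBPJ stood at 12.8, 8.70, and 6.22 CPM with vehicle and at 31.9, 24.5, and 28.9 CPM with LPC. Every LPC library was above every vehicle library, and LPC was higher in 3 of 3 isolations. With LPC, RBPJ rose by 1.62 on the log2 scale (SE 0.36, 95% confidence interval 0.90 to 2.34, adjusted p = 0.000738), or 3.07-fold. This call was kept in all 20 alternative settings, with a log2 fold change of 1.45 to 1.93.

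With dantrolene RBPJ stood at 16.8, 27.6, and 20.8 CPM, again above all vehicle libraries. It rose by 1.23 on the log2 scale (SE 0.36, interval 0.52 to 1.95, adjusted p = 0.0156), or 2.35-fold. The call was lost in 4 settings, on leaving out vehicle replicate 2 (adjusted p = 0.115), vehicle replicate 3 (0.147), LPC replicate 2 (0.0534), or dantrolene replicate 2 (0.179).

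With LPC + dantrolene RBPJ stood at 26.1, 8.26, and 27.9 CPM. Isolations 1 and 3 were above all vehicle libraries, whereas isolation 2, the library that stood apart, lay within the vehicle range. RBPJ rose by 1.17 on the log2 scale (SE 0.36, interval 0.45 to 1.88, adjusted p = 0.0273), and by 1.59 (adjusted p = 4.45e-05) without that library. With the isolation as a block the value was 1.13 and the call was lost (adjusted p = 0.109). It was also lost in a fit of vehicle and LPC + dantrolene alone (0.119) and on leaving out vehicle replicate 2 (0.163) or 3 (0.242), LPC replicate 1 (0.0581) or 2 (0.082), or LPC + dantrolene replicate 1 (0.204) or 3 (0.328).

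By mean, RBPJ ordered as LPC (28.4 ± 3.68 CPM, SD, n = 3), dantrolene (21.7 ± 5.49), LPC + dantrolene (20.8 ± 10.9), and vehicle (9.23 ± 3.31). LPC and dantrolene were not tested against each other. The combination did not pass against either and was at −0.45 relative to LPC (interval −1.15 to 0.25, adjusted p = 0.927) and at −0.06 relative to dantrolene (interval −0.76 to 0.64, adjusted p = 1), both on the log2 scale. TMM factors, which correct a library for its composition, were 0.879 to 0.918 with vehicle and 0.863 in the library that stood apart, the 4 lowest of the 12. In the other treated libraries they were 0.923 to 1.15. RBPJ was lowest in the same 4 libraries, and its log2 CPM had a correlation of 0.804 with the factors over the 12. The part of library composition in its level was not tested.

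**Figure D1:**
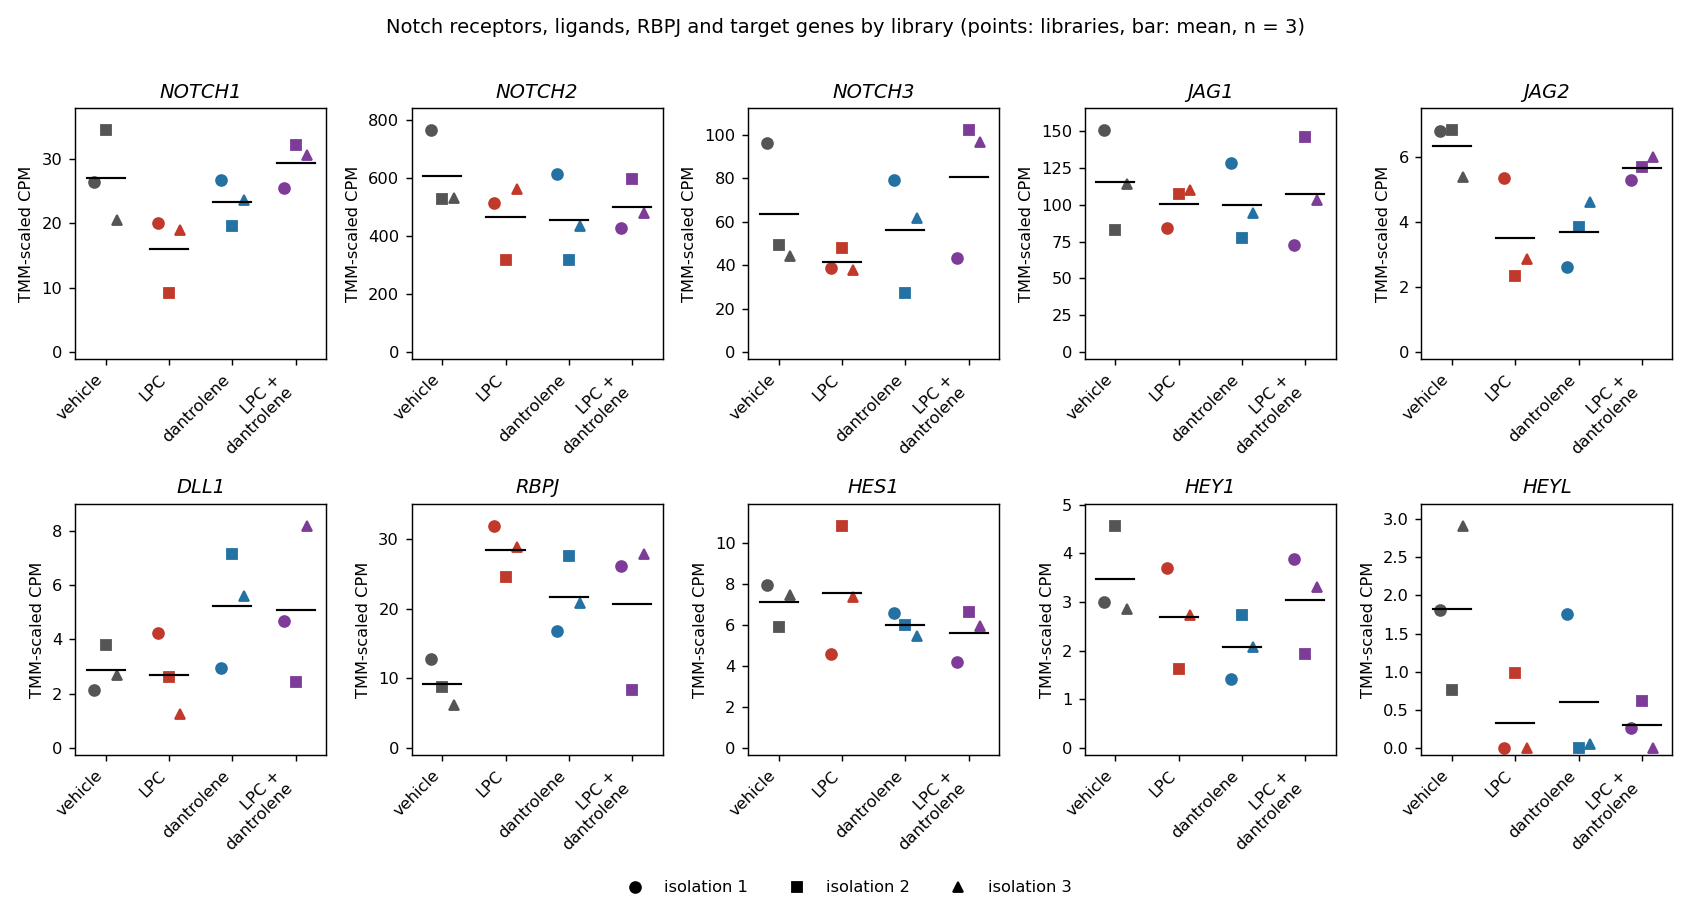
TMM-scaled CPM of the 10 Notch genes (vertical axes, linear, 1 scale per gene) in the 4 groups, with 1 point per library, symbol shape for the isolation, and a bar for the mean of 3. RBPJ lies at 6.22 to 12.8 CPM with vehicle and at 16.8 to 31.9 CPM in the treated libraries except LPC + dantrolene of isolation 2 (8.26 CPM), while points of different groups are intermixed for most other genes.

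Among the receptors, NOTCH1 was lowest with LPC. It stood at 26.3, 34.4, and 20.6 CPM with vehicle and at 20.0, 9.12, and 18.9 CPM with LPC. On TMM-scaled CPM the 2 groups did not overlap, though the highest LPC library was just under the lowest vehicle library. The LPC value was lower in 3 of 3 isolations. On total counts alone the groups overlapped, with 390 counts of 18050059 in LPC of isolation 1 against 354 of 19585430 in vehicle of isolation 3. The difference of −0.76 on the log2 scale (SE 0.34, interval −1.43 to −0.09) had an unadjusted p of 0.0274 and an adjusted p of 0.21, and so did not pass.

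With dantrolene NOTCH1 stood at 26.7, 19.6, and 23.6 CPM, and with LPC + dantrolene at 25.4, 32.2, and 30.6 CPM. Both groups overlapped vehicle, at log2 fold changes of −0.22 and 0.12. All LPC + dantrolene libraries were above all LPC libraries, and the difference was 0.88 on the log2 scale (SE 0.34, interval 0.20 to 1.55, unadjusted p = 0.0113, adjusted p = 0.424). Its sign held in all 20 alternatives, from 0.59 to 1.07, with adjusted p from 0.259 to 0.988.

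NOTCH2 stood at 763, 529, and 532 CPM with vehicle and at 514, 317, and 563 CPM with LPC. It was at 612, 317, and 435 CPM with dantrolene and at 428, 596, and 479 CPM with LPC + dantrolene. All groups overlapped, and isolation 1 of vehicle was the highest library. Log2 fold changes against vehicle were −0.39 with LPC (interval −1.04 to 0.27), −0.42 for dantrolene (−1.07 to 0.23), and −0.28 for the combination (−0.93 to 0.37).

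NOTCH3, a receptor best known from mural cells, stood at 96.3, 49.5, and 44.3 CPM with vehicle and at 38.6, 47.9, and 37.6 CPM with LPC. It was at 79.1, 27.4, and 61.8 CPM with dantrolene and at 43.5, 102, and 96.6 CPM with LPC + dantrolene. The LPC libraries lay close together and the other groups were widely spread, so that every group overlapped vehicle. The LPC + dantrolene value was above the LPC value of the same isolation in 3 of 3, by 0.96 on the log2 scale (SE 0.35, interval 0.27 to 1.66, unadjusted p = 0.00703, adjusted p = 0.35). Without the library that stood apart, which was the highest of the 12 for this gene, the difference was 0.74 (adjusted p = 0.517). Against vehicle NOTCH3 differed by −0.62 with LPC, −0.18 with dantrolene, and 0.35 with LPC + dantrolene, with adjusted p of 0.418, 0.856, and 0.832. The LPC value was −0.18 without vehicle replicate 1, the highest vehicle library, and −0.77 to −0.45 in the other alternatives.

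JAG1, a ligand of the Jagged group, stood at 151, 83.2, and 114 CPM with vehicle and at 84.1, 107, and 110 CPM with LPC. It was at 129, 77.2, and 94.2 CPM with dantrolene and at 72.7, 146, and 103 CPM with LPC + dantrolene. Groups overlapped throughout, and the intervals of the log2 fold changes against vehicle ran from −0.86 to 0.53 over the 3 treatments, so differences within that span could not be told from none with 3 isolations.

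On TMM-scaled CPM, JAG2, the other Jagged ligand, was lower in each single treatment in 3 of 3 isolations. It stood at 6.82, 6.83, and 5.40 CPM with vehicle, and at 5.38, 2.33, and 2.88 CPM with LPC. It was at 2.63, 3.85, and 4.64 CPM with dantrolene and at 5.31, 5.72, and 6.02 CPM with LPC + dantrolene. Neither single treatment overlapped vehicle on this scale, by a narrow margin for LPC. The combination did overlap it and lay above all dantrolene libraries. On total counts alone, vehicle of isolation 3 (93 counts of 19585430) lay below LPC of isolation 1 (105 of 18050059). It also lay below dantrolene of isolation 3 (85 of 16826942), which in turn lay above the combination of isolation 2 (92 of 18653374). So no separation was kept on that scale. None of this passed the test, with log2 fold changes of −0.85 for LPC (interval −1.67 to −0.02, adjusted p = 0.295), −0.78 for dantrolene (−1.60 to 0.05, 0.358), and −0.16 for the combination (−0.98 to 0.65, 0.963). The combination against dantrolene gave 0.62 (adjusted p = 1). Between 43 and 143 counts stood behind each value.

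DLL1, a Delta-like ligand, stood at 2.15, 3.80, and 2.67 CPM with vehicle and at 4.25, 2.61, and 1.23 CPM with LPC. It was at 2.96, 7.16, and 5.62 CPM with dantrolene and at 4.68, 2.42, and 8.17 CPM with LPC + dantrolene. The groups overlapped, with dantrolene above vehicle in 3 of 3 isolations. Log2 fold changes were −0.09 with LPC, 0.87 with dantrolene (interval −0.05 to 1.80, adjusted p = 0.354), and 0.83 with LPC + dantrolene (−0.09 to 1.76, adjusted p = 0.454). Without LPC + dantrolene replicate 2 the last was 1.22 and passed the test (adjusted p = 0.0459), the only alternative in which it did, and without LPC + dantrolene replicate 3 it was 0.31 (adjusted p = 1). Between 24 and 188 counts stood behind each value.

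None of the 3 target genes passed the test in any comparison. HES1, a transcriptional repressor that the pathway turns on in many cell types, stood at 7.96, 5.90, and 7.44 CPM with vehicle and at 4.56, 10.8, and 7.36 CPM with LPC. It was at 6.57, 5.98, and 5.46 CPM with dantrolene and at 4.21, 6.65, and 5.97 CPM with LPC + dantrolene. LPC spanned the whole range of the 12 libraries but for the lowest, and no group was separate from another. Log2 fold changes were 0.09 for LPC (interval −0.67 to 0.85), −0.24 for dantrolene, and −0.34 for the combination (interval −1.10 to 0.42).

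HEY1, a related repressor of the HEY family, stood at 3.00, 4.56, and 2.85 CPM with vehicle and at 3.69, 1.63, and 2.73 CPM with LPC. It was at 1.42, 2.74, and 2.07 CPM with dantrolene and at 3.89, 1.93, and 3.31 CPM with LPC + dantrolene. On TMM-scaled CPM all dantrolene libraries were below all vehicle libraries, but the gap was small. It was absent on total counts alone, with 72 counts of 24105935 in dantrolene of isolation 2 against 49 of 19585430 in vehicle of isolation 3. The difference of −0.73 (interval −1.72 to 0.26) had an adjusted p of 0.548. The other treatments overlapped vehicle, at −0.37 with LPC and −0.18 with LPC + dantrolene. Values rested on 26 to 78 counts.

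HEYL, also of the HEY family, had 38, 13, and 50 counts with vehicle. With LPC it had 0, 18, and 0 counts, with dantrolene 32, 0, and 1, and with LPC + dantrolene 5, 10, and 0. In each treated group 1 or 2 libraries were at or under the floor of 3 counts while LPC of isolation 2 and dantrolene of isolation 1 lay within the vehicle range, and LPC + dantrolene was the only group below it throughout. Fitted log2 fold changes were −2.48 with LPC (SE 1.09, adjusted p = 0.196), −1.62 with dantrolene (SE 1.03, adjusted p = 0.497), and −2.64 with LPC + dantrolene (SE 1.10, adjusted p = 0.176), and with counts of 0 they depend on the prior count. HEYL passed the test with LPC in a fit of vehicle and LPC alone (adjusted p = 0.00969) and without LPC replicate 2 (0.0458), and with dantrolene without dantrolene replicate 1 (0.0264). In both of the latter, the library left out was the one with counts in the vehicle range.

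**Figure D2:**
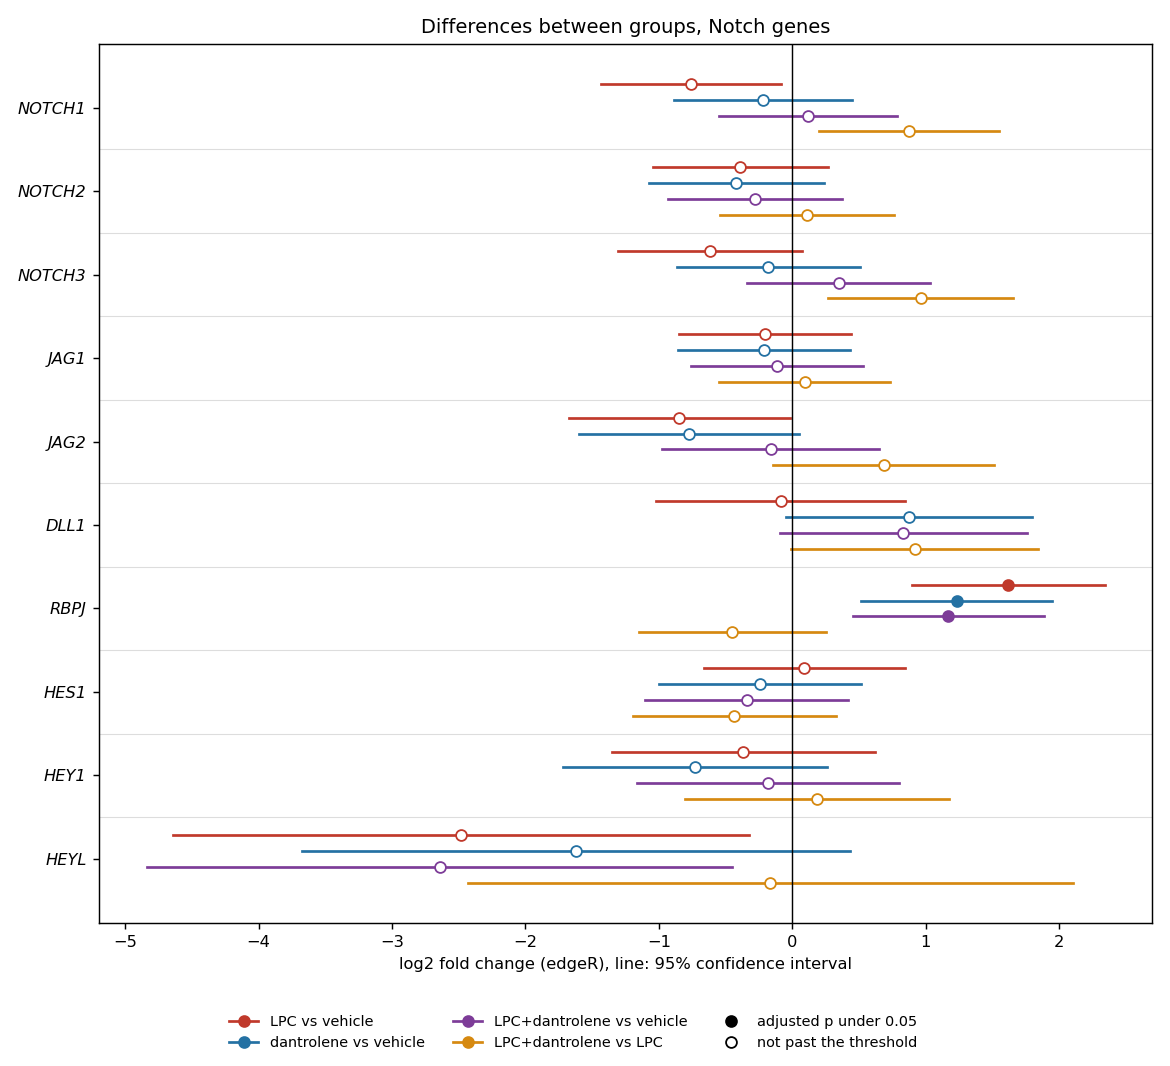
Log2 fold changes (horizontal axis) of the 10 Notch genes in 4 comparisons, with lines for the 95% confidence interval from the edgeR fit and filled points for an adjusted p under 0.05. The filled points are RBPJ in the 3 treatments against vehicle, at 1.62, 1.23, and 1.17, and the widest intervals are those of HEYL.

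By non-overlap of the libraries on TMM-scaled CPM, 1 member was higher with LPC (RBPJ) and 2 were lower (NOTCH1 and JAG2), where 16.6% and 10.6% of all genes were. With dantrolene 1 was higher (RBPJ) and 2 were lower (JAG2 and HEY1), against 16.1% and 11%. With LPC + dantrolene 0 were higher and 1 was lower (HEYL), against 4.71% and 5.74%. On total counts alone NOTCH1 and JAG2 with LPC, and JAG2 and HEY1 with dantrolene, overlapped vehicle. The shares of all genes were not taken on that scale. The median log2 fold change of the members was −0.38 with LPC, −0.23 with dantrolene, and −0.14 with LPC + dantrolene. Over all tested genes the medians were −0.18, −0.11, and −0.08, and when libraries were scaled to total counts alone they moved to −0.0023, 0.13, and 0.12. The scaling thus shifts small differences, and the sign of 1 member with LPC (DLL1), 3 with dantrolene (NOTCH1, NOTCH3, and JAG1), and 3 with the combination (JAG1, JAG2, and HEY1) turned positive on total counts.

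Adding dantrolene to LPC asks what the blocker changes in cells that also receive the lipid. No Notch gene passed the test in LPC + dantrolene against LPC, where 0.507% of all genes did. An unadjusted p under 0.05 was seen for 2 of 10 (NOTCH1 and NOTCH3). The share of all genes at that unadjusted threshold was not taken, so this count is not read as a result. By DESeq2's Wald test the number called was likewise 0. By non-overlap 1 member was higher (NOTCH1) and 0 were lower, where 4.86% and 4.93% of all genes were. In LPC + dantrolene against dantrolene 0 of 10 passed, where 0.0227% of all genes did, and 0 had an unadjusted p under 0.05. DESeq2 also called 0 there, and 1 member was higher without overlap (JAG2), where 2.54% of all genes were, and 0 were lower, where 2.17% were. On total counts alone the JAG2 libraries of these groups overlapped.

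The interaction, the effect of LPC with dantrolene less that without, addresses whether the response to LPC depends on the blocker. RBPJ was the 1 member of 10 that passed, in the negative direction, where 4.49% of all genes did, and 0 passed in the positive direction, where 0.159% did. LPC alone raised RBPJ by 1.62 over vehicle, and in the presence of dantrolene it differed by −0.06, which gave an interaction of −1.68 (SE 0.50, interval −2.68 to −0.68, adjusted p = 0.0327). Without LPC + dantrolene replicate 2 it was −1.37 (adjusted p = 0.0452). The call was lost with the isolation as a block (−1.79, adjusted p = 0.0794), with DESeq2's Wald test (0.0617), on total counts (0.106), and on leaving out vehicle replicate 2 (0.13) or 3 (0.111), LPC replicate 1 (0.14) or 2 (0.131), or dantrolene replicate 2 (0.209).

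NOTCH1, NOTCH3, and JAG2 had positive interactions of 1.09, 1.14, and 1.46 on the log2 scale, each positive in 3 of 3 isolations. Their unadjusted p were 0.0239, 0.0222, and 0.0148 and their adjusted p 0.224, 0.215, and 0.166, so none passed. All 3 had lower means with LPC than with vehicle, and higher means with LPC + dantrolene than with dantrolene. Over the 10 members the median interaction was 0.72 against 0.18 over all genes. On total counts the median over all genes was −0.04, and that over the members was not taken. The interactions of NOTCH1, NOTCH3, and JAG2 were smaller there, at 0.89, 0.92, and 1.23.

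The 65 other genes of the pathway, from NOTCH4 and further ligands to corepressors, were read in the same fit. All had a row and 57 passed the filter. The Delta-like ligands DLL3 and DLL4, the decoy-like DLK1 and DLK2, the glycosyltransferase MFNG, and the targets HES5, HES7, and NRARP did not, with 0 to 8 counts in any library. NOTCH4, a receptor best known from endothelium, passed the filter with 7 to 35 counts, and HEY2, another HEY family gene, stood at 74.3 to 147 CPM. Neither passed a test.

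With LPC 5 of the 57 were higher, and 0 were lower. They were ADAM10, the protease of the first receptor cut, ITCH and NEDD4, ubiquitin ligases that send Notch receptors for degradation, HDAC2, a histone deacetylase, and CIR1, a corepressor that binds RBPJ. The same genes were higher with dantrolene, and all but HDAC2 with LPC + dantrolene, with 0 lower in either. The shares of 5, 5, and 4 of 57 are 8.77%, 8.77%, and 7.02%, near those of all genes. Without LPC + dantrolene replicate 2 the counts were 6, 6, and 7 higher and 0, 1, and 1 lower, with MIB1, a ubiquitin ligase of Notch ligands, added in all 3, FBXW7, which directs the receptor's intracellular domain to degradation, in the combination, and HES6, of the HES family, as the lower gene. Calls over all genes, in both directions together, rose as well in that setting. They went from 1163 to 1799 with dantrolene and from 943 to 2099 with the combination. With LPC they were 1148, and at most 1692 on leaving out any library. The added genes thus say nothing particular to the pathway. None of the 57 passed in LPC + dantrolene against LPC or against dantrolene by edgeR. There 1 and 0 had an unadjusted p under 0.05, a threshold at which no share of all genes was taken.

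ADAM10 stood at 27.4, 18.8, and 15.9 CPM with vehicle and at 63.3, 60.9, and 52.6 CPM with LPC. It was at 38.4, 74.0, and 47.5 CPM with dantrolene and at 54.5, 15.4, and 63.1 CPM with LPC + dantrolene. As for RBPJ, isolation 2 of the combination was the exception among treated libraries, here below all vehicle libraries. ADAM10 rose by 1.51 with LPC (SE 0.36, adjusted p = 0.00153) and 1.36 with dantrolene (adjusted p = 0.00546), and by 1.10 with the combination (adjusted p = 0.0397). The last call was lost in 10 of 20 alternatives, among them the isolation as a block (adjusted p = 0.141). Without LPC + dantrolene replicate 2 it was 1.55 (adjusted p = 3.66e-05). ADAM17, another protease of the same family, passed in no comparison.

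ITCH stood at 17.7, 11.9, and 10.4 CPM with vehicle and at 58.2, 55.4, and 48.5 CPM with LPC. It was at 32.3, 54.4, and 41.3 CPM with dantrolene and at 56.1, 13.7, and 52.7 CPM with the combination. ITCH rose by 2.02, 1.68, and 1.62 (adjusted p = 2.47e-05, 0.000531, and 0.000928), and all 3 calls were kept in every alternative. The last was 2.08 (adjusted p = 1.08e-07) without LPC + dantrolene replicate 2.

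NEDD4 rose by 1.35, 1.69, and 1.74 with LPC, dantrolene, and the combination (adjusted p = 0.00744, 0.000671, and 0.000479), and by 2.17 with the combination without LPC + dantrolene replicate 2. Its LPC call was lost on leaving out vehicle replicate 2 or 3 or LPC replicate 1 or 2 (adjusted p up to 0.0855). CIR1 rose by 1.55, 1.35, and 1.40 (adjusted p = 0.000894, 0.00515, and 0.00391), and by 1.75 with the combination without that library. Its dantrolene call was lost without vehicle replicate 2 or dantrolene replicate 2 (up to 0.144), and its combination call without vehicle replicate 2 or LPC + dantrolene replicate 1 (up to 0.0756). HDAC2 rose by 1.14 after LPC (adjusted p = 0.0159) and by 1.07 after dantrolene (0.0266). HDAC2 was at 0.86 with the combination and did not pass (adjusted p = 0.125), but did without LPC + dantrolene replicate 2 (1.22, adjusted p = 0.000952). The HDAC2 call with LPC was lost without vehicle replicate 2 or 3 or LPC replicate 2 (up to 0.145). That with dantrolene was lost with the block (0.0683) and without vehicle replicate 2 or 3, LPC replicate 2, or dantrolene replicate 2 or 3 (up to 0.289). In the interaction ADAM10 (−1.77, adjusted p = 0.0204) and ITCH (−2.08, adjusted p = 0.0055) passed, both negative, 2 of 57 genes (3.51%) where 4.49% of all genes did. They were −1.44 and −1.73 (adjusted p = 0.025 and 0.00468) without LPC + dantrolene replicate 2. Over the libraries, log2 CPM of ADAM10, ITCH, NEDD4, HDAC2, and CIR1 had correlations of 0.747 (CIR1) to 0.908 (NEDD4) with the TMM factors. With RBPJ the correlations were 0.899 (NEDD4) to 0.984 (ITCH). The part of library composition in these levels was not tested either.

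**Figure D3:**
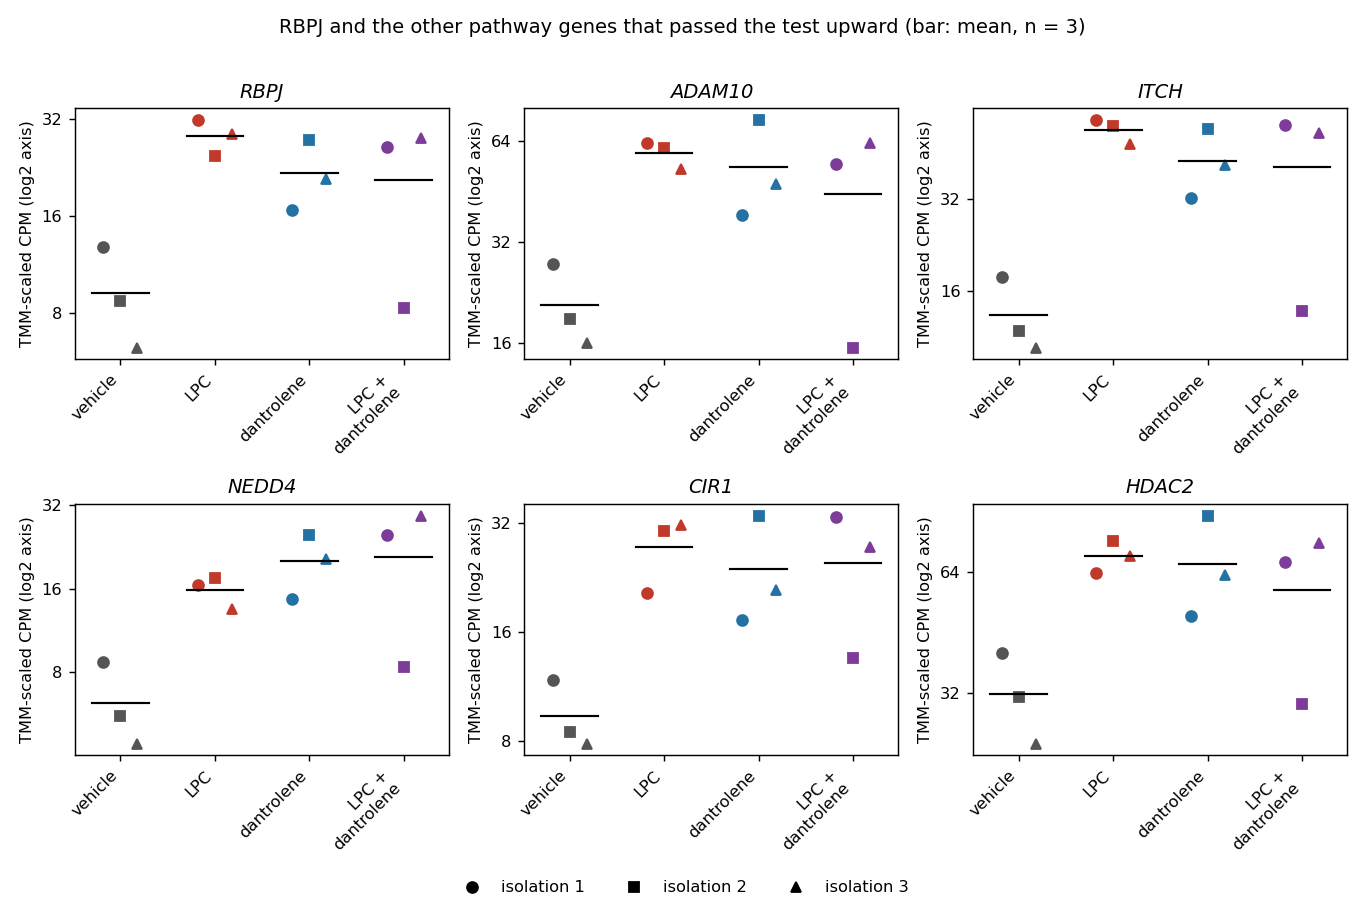
TMM-scaled CPM (vertical axes, log2 scale) of RBPJ and the 5 other pathway genes that were higher in at least 1 treatment, with 1 point per library, symbol shape for the isolation, and a bar for the mean of 3. In each panel the 3 vehicle libraries and LPC + dantrolene of isolation 2 are the 4 lowest points, as for RBPJ at 6.22 to 12.8 and 8.26 CPM.

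A list of 4 regulators of valve calcification was read beside the pathway. RUNX2, SOX9, and BMP2, an osteoblast factor, a chondrogenic factor, and a bone morphogenetic protein, passed in no comparison. With vehicle, LPC, dantrolene, and the combination, RUNX2 means were 34.7, 27.2, 38.8, and 45.8 CPM. Those of SOX9 were 35.1, 26.5, 36.2, and 32.7 CPM. The study's own qRT-PCR found RUNX2 and SOX9 raised by dantrolene against vehicle at both its earlier and its later time point. Not passing here does not show these genes to be unchanged. MGP, which encodes an inhibitor of calcification, stood at 983, 507, and 1584 CPM with vehicle and at 353, 999, and 781 CPM with LPC. It was at 649, 248, and 364 CPM with dantrolene and at 230, 762, and 185 CPM with LPC + dantrolene. The lowest vehicle library was within the range of each treated group. MGP fell by 1.28 on the log2 scale with dantrolene (SE 0.39, adjusted p = 0.0211) and by 1.39 with LPC + dantrolene (adjusted p = 0.0126). Each call was lost in 9 of 20 alternatives, including the isolation as a block (adjusted p = 0.0977 and 0.0611) and DESeq2 (0.399 and 0.397). Without LPC + dantrolene replicate 2 the second was −2.24 (adjusted p = 6.99e-06).

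**Figure D4:**
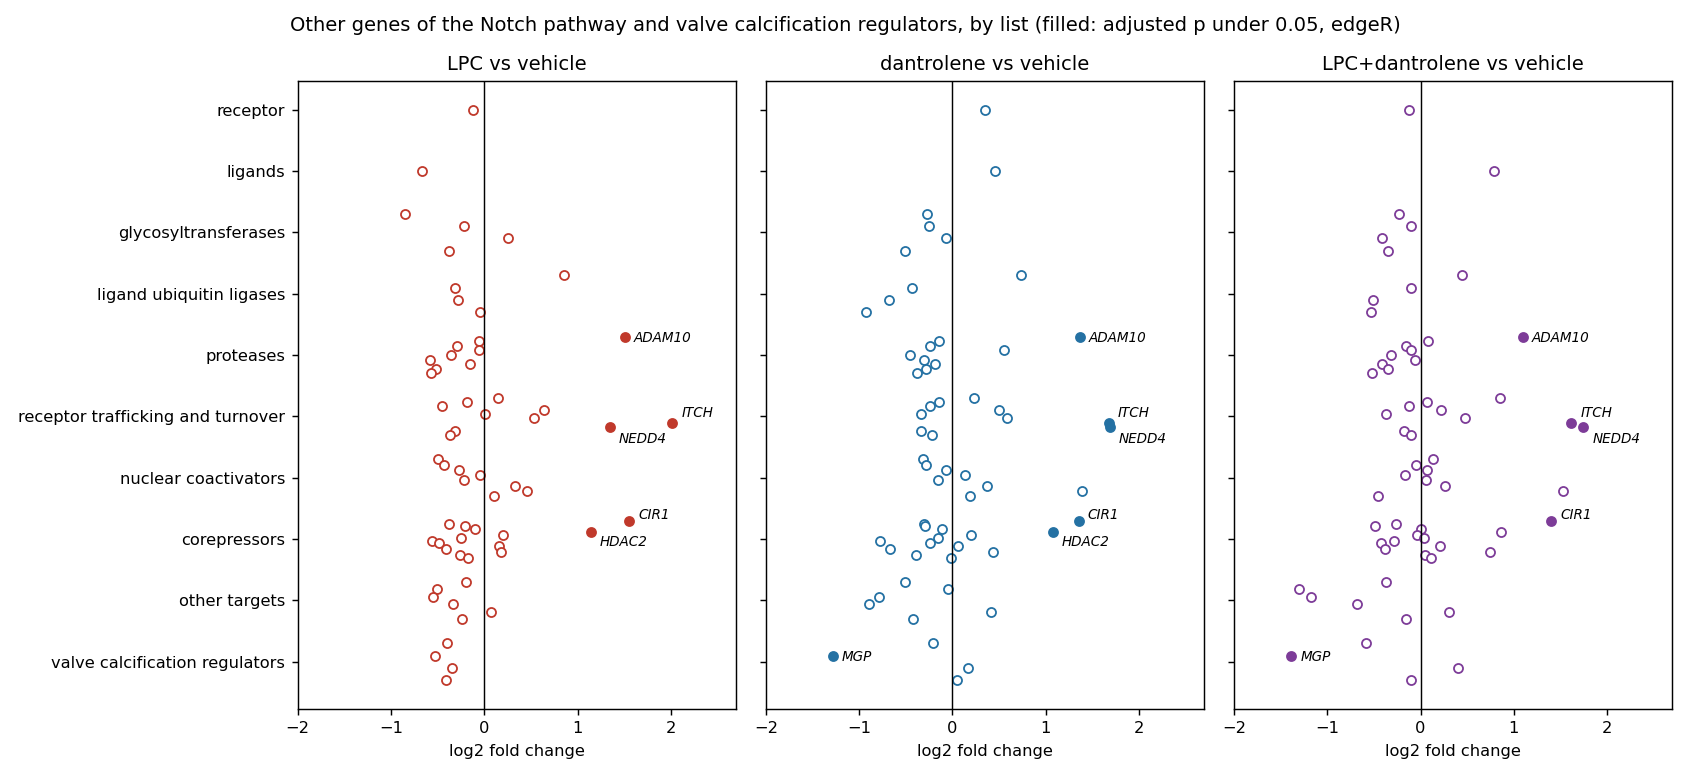
Log2 fold changes (horizontal axes) of the 57 other pathway genes tested and of 4 valve calcification regulators, by list, in the 3 treatments against vehicle, with filled points for an adjusted p under 0.05. Filled points on the right are ADAM10, ITCH, NEDD4, CIR1, and, with LPC and dantrolene, HDAC2, and the filled point on the left is MGP at −1.28 with dantrolene and −1.39 with LPC + dantrolene.

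The genes whose log2 CPM was most like that of each member over the 12 libraries are given as a description, since the libraries share vehicle, isolation, and composition. For RBPJ they were PLEKHA3 (Pearson's r = 0.992, Spearman's rho = 0.979), GFPT1 (0.991 and 0.937), and ATF2 (0.991 and 0.965). Without the 2 libraries farthest from the median of RBPJ, r was 0.987, 0.984, and 0.990. NOTCH2 was most like FN1, which encodes the matrix protein fibronectin (r = 0.977, rho = 0.986, 0.950 without the 2 farthest libraries). NOTCH3 was most like the collagen gene COL6A3 (r = 0.952, rho = 0.811, 0.921 without), and NOTCH1 like the coactivator gene NCOA6 (r = 0.971, rho = 0.867, 0.906 without). JAG1 was most like PTGFRN (r = 0.972, rho = 0.951, 0.954 without). The leading genes of JAG2, DLL1, HES1, HEY1, and HEYL had r of 0.917 to 0.943, and no member stood among the 3 genes nearest another member.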

How the data were processed

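RNA sequencing counts of 12 paVIC libraries were analysed. The authors adjusted the counts for batch with ComBat and deposited whole-number counts per gene, not scaled for library size. The study's methods name STAR for alignment, whereas the submitters' processing notes list HISAT2 2.0.5, R 4.1.1, DESeq2 1.32.0, and Sscrofa11.1, and which aligner made the counts was not resolved. The authors also deposited tables of their own comparisons, with fold changes and p-values per gene, which were not used here.

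Counts were fitted in R 4.3.3 with edgeR 4.0.16 (filterByExpr, TMM, quasi-likelihood test, group as the only term, all 12 libraries), with Benjamini-Hochberg adjustment over 13216 genes and a threshold of 0.05. CPM for patterns used a prior count of 2, and principal components the 500 most variable genes. Positions came from RefSeq for Sscrofa11.1, and pathway and marker symbols from the count table, with 4 from a gene name table. Members and lists were chosen with earlier results of these data known. Named genes are the 10 members, pathway genes past the threshold or not tested, and the 3 genes most like each member, with ADAM17, NOTCH4, HEY2, RUNX2, SOX9, BMP2, MIB1, FBXW7, and HES6 chosen after their values were seen.

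Same-numbered libraries come from the same isolation, per the labels. The main test does not use this pairing, and a replicate block was fitted as an alternative. Deviations from group means had a median correlation of −0.152 (range −0.536 to 0.207) within an isolation and 0.108 otherwise, which a batch adjustment can set. Alternatives were leaving out each library, a replicate block, fitting only the groups compared, DESeq2 1.42.0, scaling by RLE factors or by total counts, dropping the filter or requiring 10 counts in every sample, and a threshold of 0.1. Floors cover counting error only.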

Additional observations from a re-analysis of the deposited data

Results flagged for a closer look

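The 3 genes RBPJ, ADAM10, and ITCH were picked out because the effect of LPC in the presence of dantrolene differed from its effect without it, by the interaction test of edgeR with Benjamini-Hochberg adjustment. The difference was −1.68 on the log2 scale for RBPJ (adjusted p = 0.0327), −1.77 for the protease gene ADAM10 (adjusted p = 0.0204), and −2.08 for the ubiquitin ligase gene ITCH (adjusted p = 0.0055), each negative in 3 of 3 isolations. With the isolation as a block the adjusted p was 0.0794 for RBPJ and 0.0716 for ADAM10. The RBPJ call was lost in 8 of 19 alternatives, the ADAM10 call in 7, and the ITCH call in 3. In all 3 genes the LPC + dantrolene library of isolation 2 was within or below the vehicle range, and without it the differences were −1.37, −1.44, and −1.73 (adjusted p = 0.0452, 0.025, and 0.00468). No group held more than 3 libraries, so single libraries were not tested as outliers.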

How the results depend on the processing

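Of 60 results on Notch genes (10 genes in 6 comparisons), 54 kept their side of the threshold in every alternative and 23 changed sign in at least 1, none of them called. The RBPJ call with LPC held throughout. Of 18 calls on other pathway genes and MGP, 7 held in every alternative. The cause of the changes below was not tested.

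Notch genes called were 2 with LPC in a fit of only the groups compared (HEYL added), and 0 with LPC + dantrolene in that fit and with the replicate block. In the interaction they were 0 with DESeq2, total counts, and the block. The block ended no other member's call. Over all genes, LPC + dantrolene against vehicle gave 943 calls, 553 with only the groups compared, and 618 with the block. LPC + dantrolene against LPC gave 67, with 7 on total counts, 16 with only the groups compared, 19 with the block, and 110 at an adjusted p under 0.1. LPC + dantrolene against dantrolene gave 3, with 6 without a filter and 1 on total counts, with at least 10 counts, or with only the groups compared. The interaction gave 614, with 234 on total counts and 280 with the block.

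Leaving out 1 library gave 1 to 2 Notch genes called with LPC, 0 to 2 with dantrolene, 0 to 2 with LPC + dantrolene, 0 to 0 for the combination against either single treatment, and 0 to 1 for the interaction. Over all genes the ranges were 687 (without LPC replicate 2) to 1692, 429 (without dantrolene replicate 2) to 1799, 508 to 2099 (without LPC + dantrolene replicate 2), 9 to 140, 1 to 6, and, for the interaction, 4 (without LPC replicate 2) to 937.

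Signs turned on total counts for DLL1 with LPC (0.12, and 7.7e-05 with only the groups compared), for NOTCH1 (0.015), NOTCH3 (0.038), and JAG1 (0.015) with dantrolene, and for JAG1 (0.052), JAG2 (0.050), and HEY1 (0.071) with LPC + dantrolene. The DLL1 interaction turned with DESeq2 (−0.0058), RLE factors (−0.0064), and total counts (−0.15).

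Signs also turned on leaving out a library. With LPC the ranges were −0.40 to 0.026 for JAG1, −0.58 to 0.26 for DLL1, and −0.25 to 0.35 for HES1. With dantrolene they were −0.45 to 0.25 for NOTCH3 and −0.40 to 0.021 for JAG1. With LPC + dantrolene they were −0.35 to 0.12 for JAG1, −0.40 to 0.11 for HEY1, and −0.017 to 0.33 for NOTCH1. Against LPC the combination gave −0.21 to 0.31 for JAG1, −0.11 to 0.27 for NOTCH2, −0.074 to 0.48 for HEY1, and −1.27 to 5.50 for HEYL. Against dantrolene it gave −2.13 to 3.28 for HEYL, −0.063 to 0.40 for NOTCH2, −0.20 to 0.31 for JAG1, −0.56 to 0.28 for DLL1, −0.33 to 0.31 for RBPJ, and −0.25 to 0.068 for HES1. The interaction gave −0.48 to 0.54 for DLL1, −0.45 to 0.15 for HES1, and −0.061 to 0.52 for JAG1.

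HEYL was not tested with at least 10 counts in every sample. A group left with 1 isolation fewer is assumed to vary like the others. Precision was limited by 3 isolations and, for HEYL, by depth.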
